A study of Mus musculus with 16 samples.

Results

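The 37 genes described here mark the proximal tubule, the first stretch of the nephron tubule behind the glomerulus. They were chosen as named genes of proximal solute transport, endocytosis, brush border peptidases, metabolism and the hepatocyte nuclear factor Hnf4a, and every array probe whose RefSeq accession belongs to a member was taken. All 37 are on the array, with 50 probes, out of 22911 named genes. A probe was kept where it was well above background in the sample dye on at least 4 of the 16 arrays, and 36 members were tested among 15646 genes. The amino acid transporter gene Slc6a19 was the member left out, being well above background on 1 array.

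Proximal tubule cells take back most of what the glomerulus filters. Sodium-coupled carriers on their apical brush border recover phosphate, glucose and amino acids, the receptors megalin and cubilin recover filtered proteins by endocytosis, and basolateral anion carriers load drugs and metabolites for secretion. The cells also make glucose and run on fatty acids, and hepatocyte nuclear factors such as Hnf4a are known to be needed for their maturation from nephron progenitors.

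The values come from whole kidneys of C57BL/6 mouse embryos at embryonic day 17.5, with total RNA of 16 kidney samples hybridised to 16 arrays in 2 dyes. All 3 mutant groups carry a conditional homozygous deletion of Ezh2 in Six2-positive nephron progenitor cells. Ezh2 is the enzyme by which Polycomb repressive complexes methylate histone H3. The mutant groups differ in the related methyltransferase gene Ezh1, deleted in the germline: wild type in the Ezh2-KO group, heterozygous in Ezh1-het and homozygous in double_KO. The control group is labelled as control or wildtype, and each group has 4 arrays that the labels call biological replicates. Cells that do not descend from Six2-positive progenitors, such as collecting duct and vessels, keep Ezh2 in every group but lack 1 or both copies of Ezh1 in the last 2 groups. Every array set its sample, in Cy5, against RNA of control 1, in Cy3, so that control 1 was measured against itself and no dyes were swapped. Levels below are log2(Cy5/Cy3) after loess normalisation, so that 0 is the level of control 1 and a value below 0 a lower level. In whole-kidney RNA, fewer proximal tubule cells and less RNA per cell cannot be told apart.

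Of the 36 measured members, 23 were well above background on all 4 double_KO arrays, and across arrays 53.1% to 63.4% of all probes were. The upper quartile of Cy5 signal was 5.21 times background on the dimmest array, control 2, and 16.6 times on the brightest, Ezh2-KO 4, and the number of arrays limits the precision of each mean. Ezh1 followed the labels, at -4.62 to -4.44 in double_KO, -1.38 to -0.88 in Ezh1-het and -0.31 to 0.37 elsewhere. An Ezh2 probe, A_51_P248067, read -3.74 to -2.69 in the 3 mutant groups and -0.51 to 0.44 in controls. The other 4 Ezh2 probes ran from -0.71 to 0.21 in the mutants, and whether they lie outside the deleted exons was not analysed here. Replicates 1 and 2 of every group lay on slide 1, and replicates 3 and 4 on slide 2. On the first principal component of all genes, which held 36.1% of the variance, control 3 (37.3) and Ezh2-KO 1 (31.4) stood apart from the rest of their groups, whose scores were -4.14 to 2.98 and -24.2 to 10.3.

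Upstream sequences are shown because most members went up and down on the same arrays, as described below, and Hnf4a is a member itself. RefSeq windows (GRCm38.p6) of 250 bases before the start were at hand for 32 members, in 42 windows. The pattern CAAAGNNCA, a core of sites that Hnf4a can bind, was searched on both strands. The Hnf4a-type pattern was present in 6 of 42 member windows (14.3%), in 20 of 98 windows of other proximal tubule genes (20.4%) and in 1803 of 32851 windows of all genes (5.49%). By gene it was found in 5 of 32 members (15.6%): Cubn, Lrp2, Aqp1, Slc3a1 and Slc7a9. The windows of Slc7a9 overlap and hold the same match, so that match was counted in each of them. The share of genes with the pattern was 19 of 75 (25.3%) among other proximal tubule genes and 1699 of 27025 (6.29%) among all genes. These shares describe letters in a window, not bound sites. Below are the windows of the 4 matching members with 1 start, 5′ to 3′ on the gene's strand, with the match in capitals.
Cubn, chr2:13491877-13492126, minus strand: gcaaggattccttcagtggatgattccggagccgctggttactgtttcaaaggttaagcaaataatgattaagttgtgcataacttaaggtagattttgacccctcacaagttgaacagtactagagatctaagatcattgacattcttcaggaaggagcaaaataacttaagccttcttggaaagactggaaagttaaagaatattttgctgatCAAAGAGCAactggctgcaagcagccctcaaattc
Lrp2, chr2:69586030-69586279, minus strand: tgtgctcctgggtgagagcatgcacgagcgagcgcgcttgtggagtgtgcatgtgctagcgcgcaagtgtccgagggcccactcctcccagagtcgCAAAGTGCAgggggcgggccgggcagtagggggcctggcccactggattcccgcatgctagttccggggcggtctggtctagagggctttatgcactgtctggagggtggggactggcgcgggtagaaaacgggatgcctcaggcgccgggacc
Aqp1, chr6:55336049-55336298, plus strand: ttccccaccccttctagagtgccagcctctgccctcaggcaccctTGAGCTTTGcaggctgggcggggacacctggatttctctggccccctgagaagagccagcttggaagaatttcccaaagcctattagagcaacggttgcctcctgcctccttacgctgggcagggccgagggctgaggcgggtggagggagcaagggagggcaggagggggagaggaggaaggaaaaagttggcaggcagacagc
Slc3a1, chr17:85028097-85028346, plus strand: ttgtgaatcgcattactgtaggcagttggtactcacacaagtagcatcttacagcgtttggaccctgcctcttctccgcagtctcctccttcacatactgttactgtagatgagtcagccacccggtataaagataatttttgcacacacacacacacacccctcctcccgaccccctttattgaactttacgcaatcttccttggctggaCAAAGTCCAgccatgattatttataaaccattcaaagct
The match starts 35 bases before the start in Cubn, 39 in Slc3a1, 154 in Lrp2 and 205 in Aqp1, where it lies on the opposite strand. Cubn and Lrp2 encode the endocytic receptors cubilin and megalin, Aqp1 a water channel and Slc3a1 the heavy subunit of the cystine and dibasic amino acid carrier.

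The members moved as a block across arrays, and much of their variation lay inside groups. Their median level was 0.01, 0.45, -1.65 and -0.21 on control arrays 1 to 4. In Ezh2-KO it was -1.47, -0.66, -0.45 and 0.19, and in Ezh1-het 0.35, 0.06, -0.18 and -0.13. In double_KO it was -0.76, -1.36, -1.03 and -1.72. So 1 control and 1 Ezh2-KO array were as low as the double_KO arrays, the Ezh1-het arrays lay close together near the control 1 level, and all double_KO arrays were below all Ezh1-het arrays. Control 3 was the lowest control for 35 of 36 members, Ezh2-KO 1 the lowest and Ezh2-KO 4 the highest Ezh2-KO array for 33 and 34, and double_KO 4 the lowest double_KO array for 30. For 28 of 36 members the 4 lowest of all 16 arrays were the same: control 3, Ezh2-KO 1, double_KO 2 and double_KO 4.

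**Figure D1:**
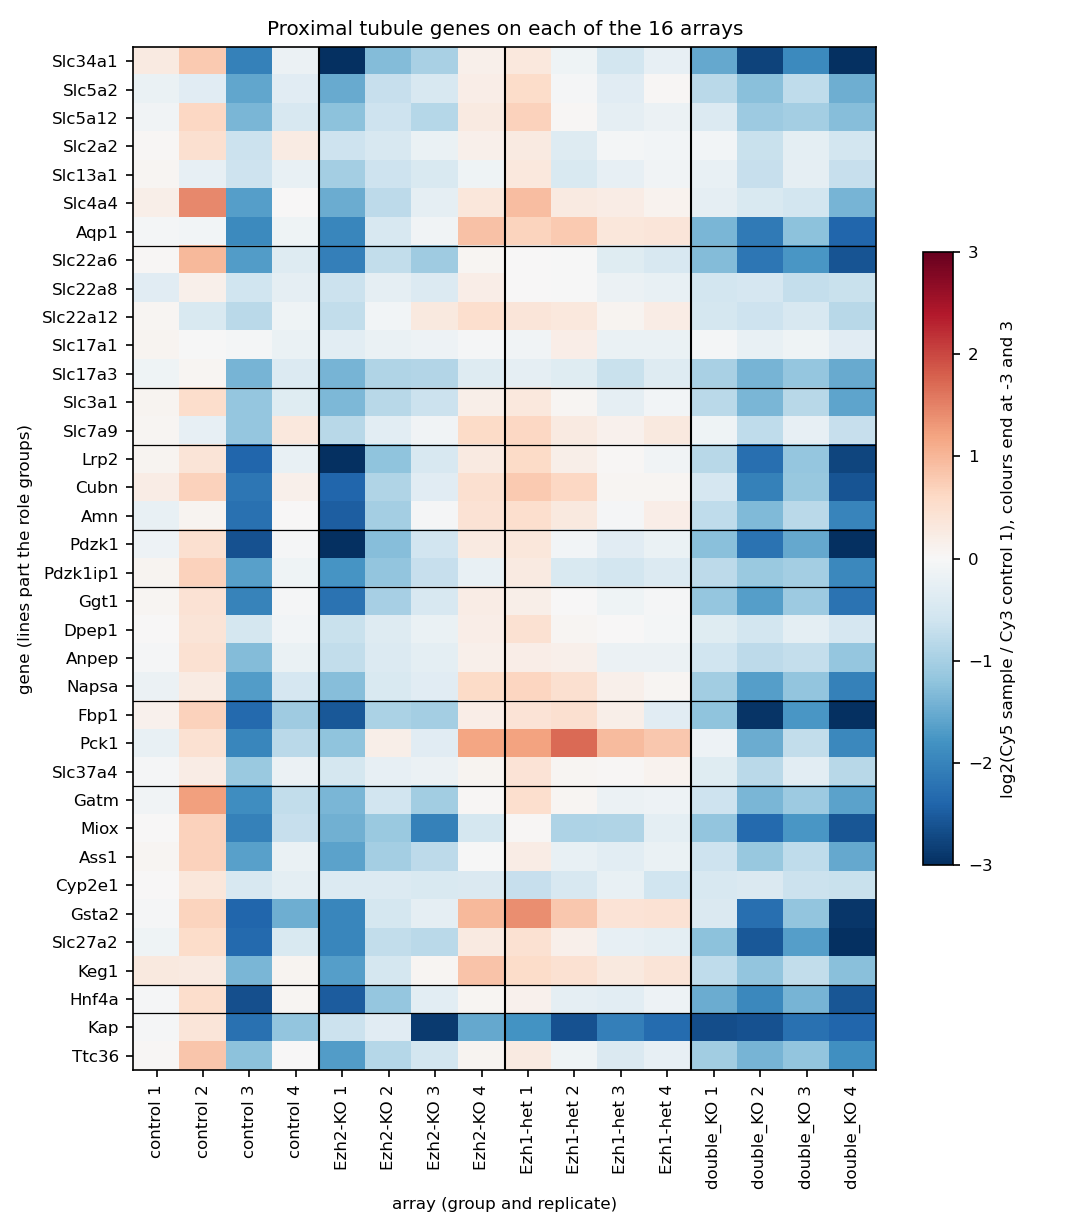
Heat map of log2(Cy5/Cy3) for the 36 measured genes (rows, in role groups) on each array (columns, 4 per group), with colours ending at -3 and 3. Control 3, Ezh2-KO 1 and the double_KO arrays are blue in nearly all rows, and Kap is blue in the Ezh1-het arrays too.

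The spread within groups was large for these genes. The median SD of a member was 0.95 in control, against 0.17 for all genes tested, and 0.72 in Ezh2-KO, against 0.13. In Ezh1-het it was 0.27 against 0.12, and in double_KO 0.42 against 0.15. Control and Ezh2-KO were thus the groups in which the members were least alike between kidneys. By group mean, double_KO was lowest for 35 of 36 members, and Ezh1-het was highest for 29 and control for 7.

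**Figure D2:**
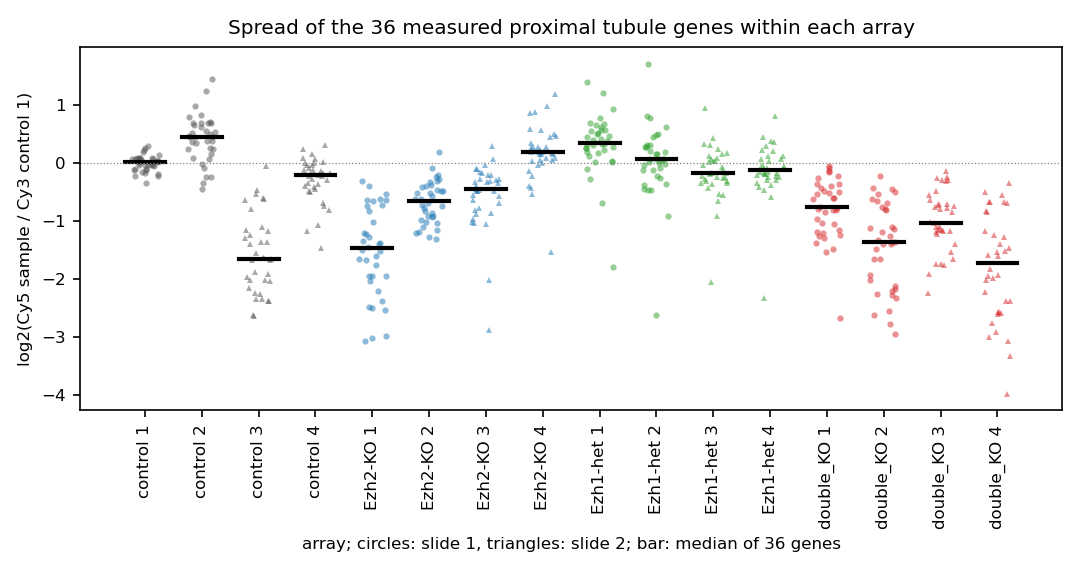
Log2(Cy5/Cy3) of the 36 measured genes on each array (points; circles slide 1, triangles slide 2) with their median (bar). Medians in Ezh1-het run from -0.18 to 0.35 and in double_KO from -1.72 to -0.76, while those of control run from -1.65 to 0.45 and those of Ezh2-KO from -1.47 to 0.19.

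The clearest separation was between double_KO and Ezh1-het, which differ in the second Ezh1 allele and share the Ezh2 deletion. This comparison was added after the values were seen. All 36 members had a lower mean in double_KO, with a median log2 difference of -1.19 against -0.03 over all genes, -1.35 with median centring in place of loess and -2.02 with software-processed signals. Slc17a1, Kap and Cyp2e1, counted here, were not well above background on any double_KO array. For 31 of 36 members all 4 double_KO arrays were below all 4 Ezh1-het arrays, while 9.83% of all genes tested were separated in that direction. The 5 members whose arrays overlapped were Slc13a1, Slc2a2, Slc17a1, Kap and Cyp2e1.

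With 1 spread estimated over all 4 groups, 0 of 36 members passed the adjusted threshold of 0.05 between double_KO and Ezh1-het, while 0.377% of all genes did. At an unadjusted p under 0.05 the count was 30 members, all lower in double_KO, against 13.7% of genes in either direction. The smallest adjusted p was 0.0528 (limma). When only these 2 groups were fitted, so that the wide spread of control and Ezh2-KO did not enter, 31 of 36 members passed, all lower in double_KO, against 5.61% of genes called lower. Without control 3 and Ezh2-KO 1, 26 passed, all lower, against 3.86% of genes. Because the pair was picked after its values were seen, both fits describe these arrays and do not replace the full fit. The same holds for each p-value given below with these 2 groups fitted. By slide, the median difference was -1.28 on slide 1, where 35 of 36 were below 0, and -1.15 on slide 2, where all 36 were.

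Among the carriers of the brush border, Slc34a1, the main sodium-phosphate cotransporter, had some of the widest ranges. On control arrays 1 to 4 it was at 0.26, 0.79, -2.03 and -0.18, and in Ezh2-KO at -3.02, -1.31, -0.97 and 0.16. In Ezh1-het it was at 0.32, -0.12, -0.56 and -0.25, and in double_KO at -1.54, -2.78, -1.91 and -3.33. All double_KO arrays were below all Ezh1-het arrays, and control 3 and Ezh2-KO 1 fell in the double_KO range. Slc34a1 differed by -2.24 (SE 0.62, 4.71-fold) between double_KO and Ezh1-het (limma adjusted p = 0.115, and 0.00191 with these 2 groups fitted). Against control the difference was -2.10 (SE 0.62, adjusted p = 0.0701). These sizes depend on the probe. A dimmer Slc34a1 probe, A_55_P1991891, well above background on all 16 arrays, had a smaller range. It read 0.10, -0.01, -0.33 and -0.10 in Ezh1-het and -1.10, -1.56, -1.17 and -1.76 in double_KO.

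The water channel gene Aqp1 was tight in Ezh1-het, at 0.67, 0.78, 0.33 and 0.36, and low in double_KO, at -1.38, -2.12, -1.23 and -2.38. Controls were at -0.05, -0.08, -1.92 and -0.14, and Ezh2-KO arrays at -1.95, -0.48, -0.10 and 0.88. Control 3 again lay apart from the other controls. The Aqp1 difference was -2.31 (SE 0.50, 4.97-fold) between double_KO and Ezh1-het (adjusted p = 0.0584, and 0.000397 with these 2 groups fitted). It was -1.36 (SE 0.50, adjusted p = 0.247) between double_KO and Ezh2-KO.

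The sulfate carrier gene Slc13a1 had a narrow range. It was at 0.07, -0.25, -0.63 and -0.22 in controls and -1.02, -0.63, -0.45 and -0.14 in Ezh2-KO. It was at 0.32, -0.45, -0.24 and -0.11 in Ezh1-het and -0.22, -0.69, -0.26 and -0.68 in double_KO, with all groups overlapping. The remaining carriers of this group are the glucose carriers Slc5a2 and Slc2a2, the lactate carrier Slc5a12 and the sodium-bicarbonate carrier Slc4a4. Over all 7, differences between double_KO and Ezh1-het ran from -2.31 to -0.33 with a median of -1.05.

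Slc22a6 encodes the basolateral organic anion transporter Oat1. Its control values were 0.03, 0.98, -1.67 and -0.39, and its Ezh2-KO values -2.04, -0.73, -1.06 and 0.05. Ezh1-het arrays read 0.02, -0.01, -0.37 and -0.47, and double_KO arrays -1.29, -2.17, -1.74 and -2.60, with no overlap between the last 2 groups. Of all members it came nearest to the threshold between double_KO and control (-1.69, SE 0.47, 3.22-fold, adjusted p = 0.0537).

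The urate transporter gene Slc22a12 was dimmer and was well above background on 1 of 4 double_KO arrays. It read 0.07, -0.45, -0.80 and -0.13 in control, -0.73, -0.09, 0.29 and 0.50 in Ezh2-KO, 0.37, 0.31, 0.09 and 0.22 in Ezh1-het, and -0.52, -0.63, -0.49 and -0.83 in double_KO. Its Ezh1-het values lay above all controls and all double_KO values, and the double_KO minus Ezh1-het difference was -0.86 (SE 0.22, adjusted p = 0.0929, and 0.000714 with these 2 groups fitted). Of the other anion carriers, Slc22a8 (Oat3) and Slc17a3 differed by -0.51 and -0.84 in this comparison. Slc17a3 was well above background on 1 of 4 double_KO arrays, and Slc17a1 was not on any.

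Of the amino acid carriers, Slc3a1 was at 0.08, 0.52, -1.17 and -0.37 in control and -1.35, -0.83, -0.64 and 0.17 in Ezh2-KO. It was at 0.31, 0.06, -0.27 and -0.09 in Ezh1-het and -0.81, -1.37, -0.84 and -1.58 in double_KO. The last 2 groups did not overlap, with a difference of -1.15 (SE 0.33, adjusted p = 0.129, and 0.00254 with these 2 groups fitted). Slc7a9, the light subunit of the same carrier, differed by -0.78 (SE 0.30).

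The endocytosis genes were among the members with the widest swings. Lrp2, which encodes megalin, and the next genes Cubn, Fbp1 and Hnf4a were chosen for description after their values were seen. Lrp2 was at 0.09, 0.38, -2.38 and -0.23 in control and at -3.07, -1.20, -0.49 and 0.26 in Ezh2-KO. It was at 0.57, 0.18, 0.03 and -0.11 in Ezh1-het and at -0.84, -2.26, -1.16 and -2.76 in double_KO. The Ezh2-KO arrays thus ran from below the lowest double_KO array to just under the highest control. Cubn followed the same arrays, with 0.78, 0.61, 0.07 and 0.06 in Ezh1-het and -0.50, -2.02, -1.13 and -2.59 in double_KO. Amn, whose product carries cubilin to the surface, showed the smallest difference of the 3 between double_KO and Ezh1-het (-1.47, SE 0.56). For Lrp2 and Cubn it was -1.92 (SE 0.66) and -1.94 (SE 0.63), with adjusted p of 0.00594 and 0.00755 when these 2 groups were fitted and 0.190 and 0.176 when all were. Another Lrp2 probe, A_66_P137745, was close to the one used here, at -3.01 on Ezh2-KO 1, -2.66 on control 3 and -3.02 on double_KO 4. A dimmer one, A_51_P174921, had a smaller range, from -0.95 on Ezh2-KO 1 to 0.51 on control 2.

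Pdzk1 encodes a scaffold that ties apical carriers together, and Pdzk1ip1 encodes a partner of that scaffold. Pdzk1ip1 read 0.09, 0.68, -1.63 and -0.13 in control and -1.76, -1.19, -0.69 and -0.23 in Ezh2-KO. It read 0.27, -0.46, -0.54 and -0.42 in Ezh1-het and -0.79, -1.12, -1.02 and -1.94 in double_KO. Its mean was -0.97 in Ezh2-KO and -1.22 in double_KO, groups whose arrays overlapped. Pdzk1 differed by -1.93 (SE 0.66) between double_KO and Ezh1-het.

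Among peptidases, Napsa, a lysosomal aspartic protease, came closest to the threshold between double_KO and Ezh1-het. It was at 0.65, 0.48, 0.16 and 0.07 in Ezh1-het and -1.04, -1.66, -1.18 and -2.02 in double_KO, a difference of -1.81 (SE 0.38, 3.52-fold, adjusted p = 0.0528, and 0.000589 with these 2 groups fitted). Controls read -0.18, 0.24, -1.67 and -0.51, and Ezh2-KO arrays -1.27, -0.46, -0.35 and 0.57, both groups overlapping double_KO. Napsa was the member called with median centring in place of loess. Its dimmer probe, A_66_P132495, read 0.25, 0.52, 0.03 and 0.09 in Ezh1-het and -0.81, -0.87, -0.70 and -1.23 in double_KO. Dpep1, a brush border dipeptidase, had a narrow range, with 0.00, 0.38, -0.53 and -0.08 in control, -0.66, -0.38, -0.21 and 0.19 in Ezh2-KO, 0.46, 0.07, 0.01 and -0.06 in Ezh1-het, and -0.36, -0.54, -0.29 and -0.51 in double_KO. Ggt1 and Anpep, the other brush border enzymes, differed by -1.54 (SE 0.49) and -0.81 (SE 0.28) between double_KO and Ezh1-het.

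Pck1, the cytosolic enzyme that commits carbon to gluconeogenesis, was the member that passed the threshold between groups. It was at 1.20, 1.71, 0.94 and 0.81 in Ezh1-het, above every control, at -0.23, 0.45, -1.96 and -0.82. Ezh2-KO arrays read -1.20, 0.18, -0.33 and 1.19, and double_KO arrays -0.16, -1.49, -0.73 and -1.93. Pck1 rose by 1.80 (SE 0.52, 3.49-fold, limma adjusted p = 0.0454) in Ezh1-het over control, and was higher within slide 1 (1.34) and slide 2 (2.27). The call did not hold on leaving out control 3 (1.37, adjusted p = 0.105) or any other array of either group except control 2 (adjusted p of 0.052 to 0.131 without one of them, 0.0306 without control 2). It was also lost with software-processed signals or the authors' value table (adjusted p = 0.103), no filter on dim probes (0.0605) and trend and robust variance (0.0535). Between double_KO and Ezh1-het it differed by -2.24 (SE 0.52, adjusted p = 0.0734, and 0.00185 with these 2 groups fitted).

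Fbp1, a later enzyme of the same pathway, had the lowest value of any member, -3.97 on double_KO 4. Its other double_KO arrays read -1.21, -2.94 and -1.74, and its Ezh1-het arrays 0.41, 0.49, 0.17 and -0.34. The difference of -2.64 (SE 0.67, 6.25-fold, adjusted p = 0.0929, and 0.00525 with these 2 groups fitted) was the largest of the 36. Slc37a4, which moves glucose 6-phosphate into the endoplasmic reticulum, differed by -0.74 (SE 0.23).

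In amino acid, lipid and xenobiotic metabolism, Gsta2, a glutathione transferase, was at -0.03, 0.66, -2.38 and -1.47 in control and -1.95, -0.52, -0.27 and 0.97 in Ezh2-KO. It was at 1.40, 0.81, 0.42 and 0.44 in Ezh1-het and -0.43, -2.27, -1.19 and -2.91 in double_KO. Keg1, which encodes an acyltransferase-like protein, had the tightest Ezh1-het values, 0.55, 0.45, 0.30 and 0.38. Its double_KO values were -0.76, -1.19, -0.74 and -1.25, those of control 0.29, 0.26, -1.36 and 0.09, and those of Ezh2-KO -1.66, -0.52, 0.07 and 0.85. Gatm, which makes the creatine precursor, read -0.10, 1.23, -1.87 and -0.75 in control and -1.38, -0.57, -1.04 and 0.03 in Ezh2-KO. In Ezh1-het it read 0.50, 0.06, -0.18 and -0.15, and in double_KO -0.63, -1.36, -1.10 and -1.61. For all 3 genes the double_KO arrays lay below the Ezh1-het arrays, by -2.47 (SE 0.67), -1.40 (SE 0.42) and -1.23 (SE 0.47) in the mean. The fatty acid carrier Slc27a2, inositol oxygenase Miox and the urea cycle enzyme Ass1 differed by -2.14 (SE 0.55), -1.43 (SE 0.47) and -0.89 (SE 0.40).

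Cyp2e1, a cytochrome P450, stayed out of this pattern. It was at 0.02, 0.34, -0.47 and -0.30 in control, -0.40, -0.42, -0.46 and -0.44 in Ezh2-KO and -0.69, -0.47, -0.23 and -0.59 in Ezh1-het. In double_KO it was at -0.49, -0.43, -0.64 and -0.67 and not well above background on any array. By group means it was 1.37-fold lower than control (adjusted p = 0.0866), a fold that rests on signal near background. Hnf4a, the nuclear receptor of the list, followed the other members, with 0.12, -0.26, -0.32 and -0.15 in Ezh1-het and -1.48, -1.93, -1.39 and -2.56 in double_KO (-1.69, SE 0.59, adjusted p = 0.202, and 0.00115 with these 2 groups fitted). Its controls were at -0.04, 0.53, -2.63 and 0.07, and its Ezh2-KO arrays at -2.50, -1.16, -0.31 and 0.05. A dimmer Hnf4a probe, A_52_P69656, well above background on 11 arrays, had a smaller range. It read 0.12, -0.21, 0.18 and -0.17 in Ezh1-het and -0.63, -0.66, -0.60 and -0.76 in double_KO. Ttc36, a tetratricopeptide repeat gene, was at 0.04, 0.83, -1.24 and 0.00 in control, -1.68, -0.86, -0.56 and 0.08 in Ezh2-KO, 0.26, -0.13, -0.43 and -0.24 in Ezh1-het, and -1.05, -1.39, -1.18 and -1.83 in double_KO. Its difference between double_KO and control was -1.28 (SE 0.38, adjusted p = 0.0693).

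Kap, the kidney androgen-regulated protein, broke from the block more than any other member. It was at -0.03, 0.36, -2.25 and -1.18 in control and -0.64, -0.33, -2.87 and -1.54 in Ezh2-KO, lower on slide 2 in both groups. In Ezh1-het it was at -1.80, -2.61, -2.05 and -2.32, and in double_KO at -2.67, -2.61, -2.24 and -2.37. It was well above background on 2 of 4 Ezh1-het arrays and on no double_KO array. By group means Kap was 3.25-fold lower in double_KO than in control (limma adjusted p = 0.0824, and 0.0415 with the slide as a block). Within the slides this difference was -2.81 and -0.59, and control 3 lay in the double_KO range, which was near background. For Ezh1-het minus control the Kap difference was -1.42 (SE 0.52, adjusted p = 0.104), with -2.37 and -0.47 within the slides. Embryo sex is not labelled. The Y-linked gene Uty ran from -0.03 to 1.49 in control, 0.68 to 1.17 in Ezh2-KO, 0.18 to 1.25 in Ezh1-het and -0.05 to 1.63 in double_KO, and its part in these values was not tested.

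**Figure D3:**
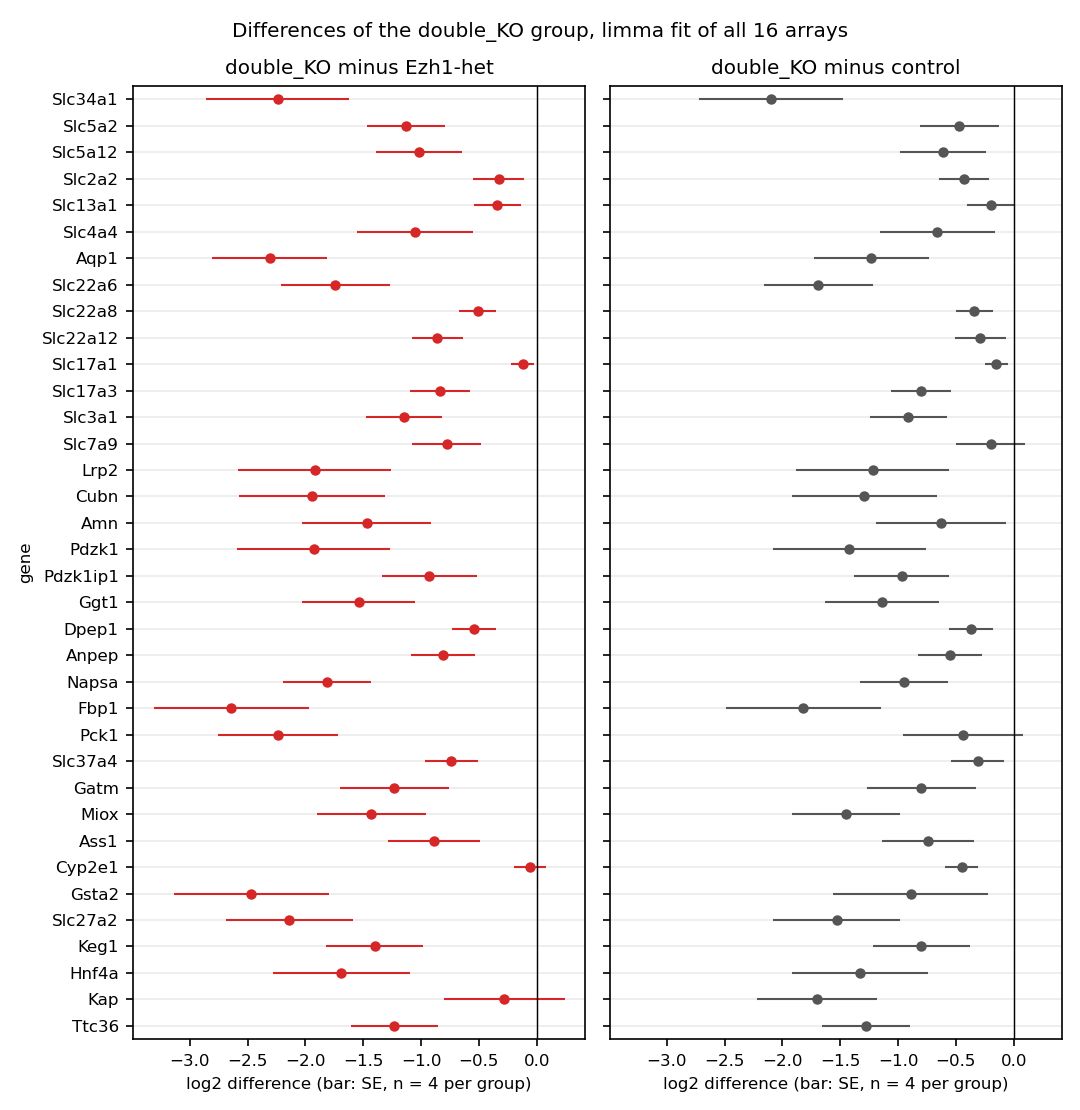
Log2 differences of the 36 genes between double_KO and Ezh1-het (left) and double_KO and control (right), with the model's SE (bars, n = 4 per group). All points lie below 0 in both panels, with the lowest at -2.64 on the left and -2.10 on the right. Slc17a1, Kap and Cyp2e1 were not well above background on any double_KO array, so their points are not measured differences.

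Against control, double_KO members were lower on average but control 3 set the outcome of the test. All 36 members had a mean below control, with a median of -0.80 against 0.01 over all genes. That median was -1.46 with software-processed signals or the authors' value table, -1.22 without control 3 and -0.52 without control 2. With median centring, which moved the median of all genes up to 0.38, the members' median was -0.65 and 35 of 36 were below 0. In the fit of all arrays 0 of 36 passed, with 0.914% of genes called lower and 3.71% higher. At an unadjusted p under 0.05 the count was 17, against 17.1% of genes in either direction. No member had all double_KO arrays below all controls (2.98% of genes did).

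Leaving out control 3 gave 20 members past the threshold between double_KO and control, all lower, against 2.15% of genes called lower. Leaving out Ezh2-KO 1 as well, which narrows the shared spread, gave 26, all lower, against 2.91% of genes. In that fit Hnf4a differed by -2.03 (SE 0.28, limma adjusted p = 0.00052), Slc34a1 by -2.68 (SE 0.40, adjusted p = 0.000862) and Lrp2 by -1.83 (SE 0.40, adjusted p = 0.0107). Pck1 was at -0.44 (SE 0.52) in the full fit and -0.88 (SE 0.42, adjusted p = 0.251) in this one. Within slide 1 the members' median difference was -1.30, with all 36 below 0, and within slide 2, which holds control 3, it was -0.31 with 34 below 0. Control 3 was set apart because it stood apart on the first component, to which these genes contribute, so the fits without it describe these arrays and do not replace the full fit.

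In Ezh2-KO, with wild-type Ezh1, the members' median against control was -0.32 (0.06 over all genes) and 29 of 36 were below 0, but with median centring it was -0.06 with 21 below 0. It moved with single arrays, to -0.01 without Ezh2-KO 1, -0.09 without control 2, -0.73 without control 3 and -0.57 without Ezh2-KO 4, and it was -0.55 with software-processed signals or the authors' value table. None of the 36 passed, with 0.677% of genes called lower and 2.40% higher, and 1 member had an unadjusted p under 0.05 (21.3% of genes). The smallest p was that of Cyp2e1 (-0.32, SE 0.14, adjusted p = 0.202). The difference had opposite signs on the slides. Within slide 1 all 36 members were below control, with a median of -1.38, and within slide 2 34 of 36 were above it, with a median of 0.69. For Lrp2 these differences were -2.37 and 1.19, and for Hnf4a -2.07 and 1.15.

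The difference between slides was itself tested as an interaction of group and slide. Its median over members was 2.16 (slide 2 minus slide 1), 32 of 36 had an unadjusted p under 0.05 (15.6% of genes), and 0 of 36 passed the adjusted threshold, while 0.0128% of genes did. The smallest p-values were those of Keg1 (2.46, SE 0.62, limma adjusted p = 0.169), Slc3a1 (1.92, SE 0.49) and Gsta2 (3.82, SE 0.98). Without control 4, 28 members passed, all higher on slide 2, against 6.26% of genes. In that fit control 3 was the lone slide 2 control, assumed to vary like the other arrays, so this count rests on the low array. Without control 3 and Ezh2-KO 1 the median was 1.12 and 0 passed. Control 3 is on slide 2 and Ezh2-KO 1 on slide 1, each 1 of 2 arrays in its cell.

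**Figure D4:**
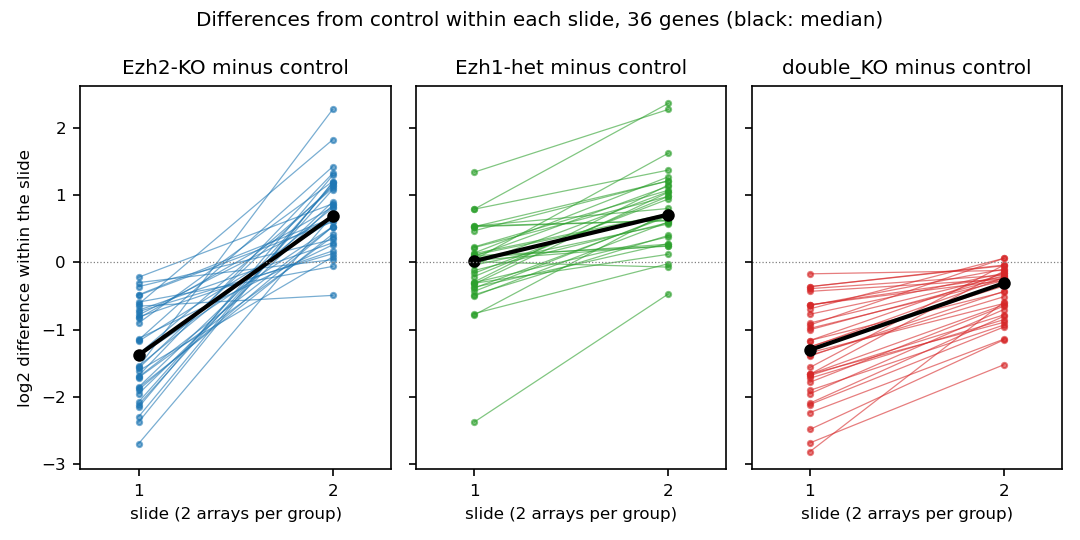
Log2 differences from control within slide 1 and within slide 2 (2 arrays per group on each) for the 36 genes (thin lines) and their median (black). In Ezh2-KO the median goes from -1.38 to 0.69, in Ezh1-het from 0.02 to 0.71 and in double_KO from -1.30 to -0.31.

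For Ezh1-het the median against control was 0.39 (0.05 over all genes), with 29 of 36 members above 0, and Pck1 was the 1 member past the threshold, against 5.91% of genes called higher and 1.90% lower. At an unadjusted p under 0.05, 5 members were higher and 2 lower (25.4% of genes in either direction). All Ezh1-het arrays were above all controls for 4 members, Pck1, Slc22a12, Aqp1 and Keg1, a share near the 12.6% of genes with that order. The median was 0.59 without control 2 and 0.24 without Ezh1-het 1. Without control 3 it was -0.01, and the 2 members past the threshold were Cyp2e1 and Kap, both lower. With median centring 7 members were called higher and 2 lower, in a setting that called 51.4% of all genes and moved the median of all genes to 0.44. The slide interactions of Ezh1-het and double_KO had medians of 0.74 and 0.88 and 0 members past the threshold, and 0% of genes passed in either. Unadjusted p-values under 0.05 were found for 2 and 1 members, against 2.80% and 2.12% of genes. These medians were 0.09 and 0.17 without control 3, and 1.48 and 1.59 without control 4. Kap had an unadjusted p under 0.05 in both, with 1.90 (SE 0.58) in Ezh1-het, and in double_KO it was not well above background.

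Between mutant groups, 0 of 36 members passed for Ezh1-het minus Ezh2-KO (0.0575% of genes), with a median of 0.72, and 2 had an unadjusted p under 0.05, both higher in Ezh1-het (7.37% of genes). These were Pck1 (1.21, SE 0.52) and Slc13a1 (0.44, SE 0.20). Without Ezh2-KO 1 the median was 0.42. For double_KO minus Ezh2-KO 0 of 36 passed (0.914% of genes), with a median of -0.55 and 35 below 0, and 6 had an unadjusted p under 0.05, all lower in double_KO (12.7% of genes). The median was -0.27 without Ezh2-KO 4, -0.36 without double_KO 4 and -0.90 with software-processed signals or the authors' value table. Napsa had the smallest p there (-1.10, SE 0.38, adjusted p = 0.226). Without control 3 and Ezh2-KO 1, 6 members passed, all lower in double_KO: Aqp1, Slc22a12, Napsa, Keg1, Hnf4a and Slc27a2, against 0.658% of genes. These comparisons share arrays with those above, and the groups overlapped for every member in both.

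The wider proximal tubule list, 99 genes of which 84 were measured and none is a member, was examined beside them. Its array medians had the same low arrays, at -0.82 on control 3, -0.86 on Ezh2-KO 1, -0.70 on double_KO 2 and -0.75 on double_KO 4. Between double_KO and Ezh1-het its median was -0.60, 81 of 84 were below 0 and 64 had no overlap of arrays (9.83% of all genes), with 0 past the adjusted threshold. Against control, 6 of 84 fell in double_KO, among them the cation carrier Slc22a2, the urate and drug exporter Abcg2, Slc22a30 and Slc22a13, while 0.914% of all genes were called lower. Slc22a2 fell by 1.18 (SE 0.25, limma adjusted p = 0.0118), with -1.40, -1.69, -1.31 and -1.59 in double_KO against -0.06, 0.43, -1.12 and -0.54 in control. Its Ezh2-KO values were -1.37, -1.15, -1.30 and -0.48 and its Ezh1-het values -0.61, -0.74, -0.95 and -0.64.

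A few genes of the wider list went up. Slc38a3, a glutamine carrier, rose in every mutant group over control, by 0.54 in Ezh2-KO (adjusted p = 0.00848), 0.70 in Ezh1-het (adjusted p = 0.000732) and 0.61 in double_KO (adjusted p = 0.00122). Its controls were at -0.05, -0.32, -0.20 and -0.29, below every mutant array, which ran from 0.16 to 0.62, and control 3 was not low for it. The peptide carrier Slc15a2 rose in Ezh2-KO (0.71, SE 0.17, adjusted p = 0.0343) and Ezh1-het (0.79, SE 0.17, adjusted p = 0.0122). Its controls were at 0.00, -0.54, -0.90 and -0.09, lowest on control 3. In Ezh1-het the neutral amino acid exchanger Slc7a8 rose by 1.51 (SE 0.39, adjusted p = 0.0302). Control 3 was low for it, with controls at 0.01, -0.16, -1.55 and -0.18. Gstm1, Slc5a10 and Slc16a9 rose in Ezh1-het by 0.41 to 0.60, so that 6 of 84 rose there and 2 of 84 in Ezh2-KO. These counts are near the shares of all genes called higher, 5.91% and 2.40%.

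Among other regulators of tubule genes, Ppara, a nuclear receptor for fatty acids, was at 0.23, 0.40, 0.13 and 0.36 in Ezh1-het and -0.25, -0.22, -0.45 and -0.61 in double_KO (-0.67, SE 0.16, adjusted p = 0.0764). Between double_KO and Ezh1-het 6 of the 10 regulators listed did not overlap, all lower in double_KO (9.83% of all genes), and 0 passed the threshold. Cebpa rose in Ezh1-het over control (0.40, SE 0.11, adjusted p = 0.0333), the 1 of 10 called higher there (5.91% of all genes). Its difference from control was similar in Ezh2-KO (0.39, adjusted p = 0.0541) and double_KO (0.34, adjusted p = 0.0821), short of the threshold.

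Markers of other kidney cells show how far the pattern reached. The loop of Henle and distal tubule list, 18 measured genes, had its lowest arrays in common with the members, at -1.60 on control 3, -0.98 on Ezh2-KO 1 and -0.95 on double_KO 4. Its median between double_KO and Ezh1-het was -0.80, with 12 of 18 not overlapping (9.83% of all genes). In this comparison 1 of 18 passed the threshold (0.377% of all genes). It was the tight junction gene Cldn16, lower in double_KO by 0.77 (SE 0.15, limma adjusted p = 0.0335). Cldn16 was also higher in Ezh1-het than in control, by 0.73 (SE 0.15, limma adjusted p = 0.0089). Between double_KO and control 0 of 18 passed. Early nephron genes were at -1.01 on control 3, below their other controls at -0.21 to 0.00, and their median between double_KO and Ezh1-het was -0.31. For collecting duct, podocyte and stroma lists that median was -0.22, -0.23 and -0.02. In that comparison all double_KO arrays were below all Ezh1-het arrays for 5 of 20 early nephron, 6 of 20 collecting duct and 7 of 17 podocyte genes. The same order held for 1 of 19 stroma and 0 of 15 nephron progenitor genes, and for 9.83% of all genes. The nephron progenitor list had a median of 0.14 there and was at 0.33 on control 3 and 0.26 on Ezh2-KO 1. Podocyte genes included 7 of 17 that rose in Ezh1-het over control, against 5.91% of all genes, such as Podxl (0.94, SE 0.20, adjusted p = 0.011), which encodes podocalyxin. The median of the podocyte list on control 3 was -0.22, the low end of a control range of -0.22 to -0.04.

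**Figure D5:**
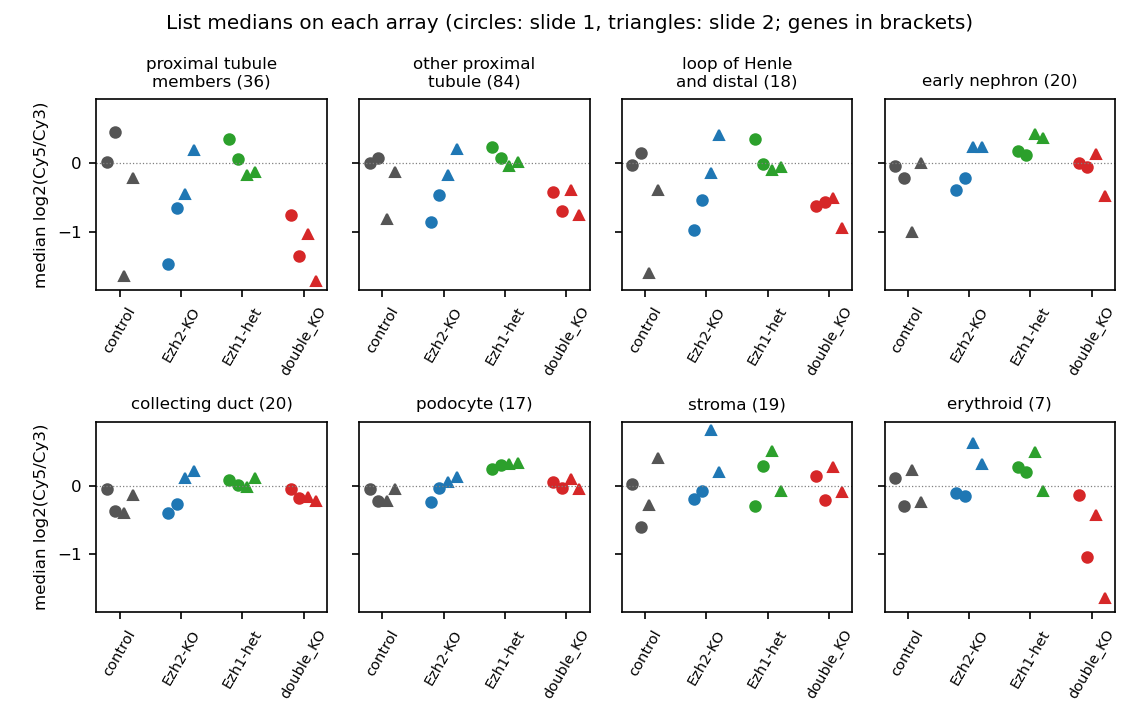
Median log2(Cy5/Cy3) on each array for the 36 members and 7 other gene lists (circles slide 1, triangles slide 2; measured genes in brackets). Control 3 is the lowest control in the proximal tubule, loop of Henle, early nephron and collecting duct panels, and level with control 2 in the podocyte panel. The erythroid list is lowest on double_KO 4 at -1.63.

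Markers of tissues that a kidney sample could carry along were also read. The 7 measured erythroid genes had medians of -0.13, -1.03, -0.42 and -1.63 on double_KO arrays, 0.23 on control 3 and -0.11 on Ezh2-KO 1, and a range of -0.30 to 0.23 in control. On Ezh1-het arrays their medians ran from -0.07 to 0.50. Between double_KO and Ezh1-het the erythroid median was -1.07, near the -1.19 of the members, with 3 of 7 not overlapping (9.83% of all genes). The liver list, 12 measured of 20, was at -0.88 on control 3 and 0.22 to 0.41 in Ezh1-het. There 3 of 12, Ttr, Rbp4 and Itih4, rose over control, against 5.91% of all genes called higher. Rbp4 was also the 1 of 12 called in double_KO over control (1.76, SE 0.23, limma adjusted p = 0.000172), where 3.71% of genes were called higher. It was higher in double_KO than in Ezh2-KO too (1.02, SE 0.23, limma adjusted p = 0.0435). Adrenal and skeletal muscle lists had array medians within -0.28 and 0.26. Proliferation genes were at 0.01 on control 3 and -0.09 on Ezh2-KO 1, and stress genes at -0.33 and 0.37. The endothelial list was at -0.03 and -0.27 on these arrays and the myeloid list at -0.38 and -0.01. The part of these lists in the members' values was not tested.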

How the data were processed

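Whole-kidney RNA of 16 samples in 4 groups was hybridised to 16 two-colour Agilent arrays on 2 slides. Spots were scanned and quantified with Agilent Feature Extraction 10.7.3.1, per the submitters' processing notes, and the deposited files hold median intensity, background and quality flags per spot, per the file headers. The deposited value table holds log10 ratios of processed Cy5 over Cy3, which differed from the scanner files' log ratios by at most 0.005, and every column has a median of 0. The other flags and annotation columns were used as deposited by the authors.

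The 62976 spots include 3671 controls, left out of tests. Background was corrected with normexp (offset 50) on median signals, arrays were loess-normalised, and spots of a probe were averaged (limma 3.58.1, R 4.3.3). The brightest kept probe stood for a gene. Dimmer probes of Hnf4a, Slc34a1, Napsa, Pdzk1, Gatm and Slc4a4 had smaller ranges than the probes used. With the mean of all kept probes the members' median in double_KO minus Ezh1-het was -1.14. Probes were named through their RefSeq accession. Differences come from 1 limma fit of all arrays with no covariates, and adjusted p-values are Benjamini-Hochberg over all 15646 genes in each comparison, with a threshold of 0.05. Interactions with slide came from a second fit. The steps were tested on simulated data. Replicate numbers did not pair the samples: the residuals of same-numbered arrays correlated at -0.48 to 0.51, above 0.1 in 8 of 24 pairs. Replicates are called biological by the labels alone, and the p-values reflect variation among the arrays at hand, part of which may be technical.

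Members and lists were chosen with earlier results of these data known. Genes described by array were the members past the threshold and the 3 with the smallest p in each comparison, with additions named as such. Alternatives were other signals, centring, filters, blocks, probe rules, variance models, the deposited value table and fewer arrays. The comparison of double_KO with Ezh1-het was added after the values were seen. Some items, a second promoter pattern among them, are not reported here.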

Additional observations from a re-analysis of the deposited data

Results flagged for a closer look

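Dixon's criterion was applied to each member in each group of 4 arrays, and 5 of 144 sets held an array far from the other 3, where chance gives about 1 in 20. On control 3, 4 members stood apart: the glucose carrier gene Slc5a2 at -1.56, the water channel gene Aqp1 at -1.92, Amn at -2.24 and Keg1 at -1.36, all log2(Cy5/Cy3). Pdzk1ip1 stood apart on Ezh1-het 1, where it was at 0.27. On Ezh2-KO 1, 0 members did. The cause was not tested.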

How the results depend on the processing

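The median of double_KO minus Ezh1-het was below 0 in 19 of 19 settings. It was -2.02 with software-processed signals and with the authors' value table, and -1.54 with probes well above background on all 16 arrays. Members past the threshold there numbered 1 with median centring, 31 with 2 groups fitted and 26 without control 3 and Ezh2-KO 1. For double_KO minus control they numbered 1 with software-processed signals, the slide as a block or the authors' value table, 7 with median centring and 26 without control 3 and Ezh2-KO 1, and leaving out 1 array gave 0 to 20. For Ezh1-het minus control they numbered 0 with software-processed signals, no filter, trend and robust variance or the authors' value table, 9 with median centring and 2 without control 3 and Ezh2-KO 1, and leaving out 1 array gave 0 to 2. The replicate block also gave 0 there, with Pck1 at an adjusted p of 0.0634. For Ezh2-KO minus control median centring gave 2 and leaving out 1 array 0 to 1. For double_KO minus Ezh2-KO leaving out control 3 and Ezh2-KO 1 gave 6 and leaving out 1 array 0 to 1. The Ezh2-KO slide interaction had 0 to 28 members past the threshold when 1 array was left out, and medians of 3.15 with software-processed signals or the authors' value table and 1.12 without control 3 and Ezh2-KO 1. For double_KO that median was 0.17 without those 2 arrays and 0.17 to 1.59 on leaving out 1, and for Ezh1-het 0.09 to 1.48. The causes were not tested. Dim members such as Slc17a1, Cyp2e1 and Kap are limited by signal over background.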
